A study of Arabidopsis thaliana with 34 samples.

Results

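Of 34599 regions in which NRPE1 was called in at least 1 of 6 ChIP-seq peak lists, 4034 (11.7%) carried an NRPE1 peak in every list and are called constant NRPE1 regions here. The lists came from wild-type Col-0 (WT), the *h1* double mutant (h1.1-1/h1.2-1, which lacks both main linker histones) and a homozygous ZF108-DMS3 line, with 2 libraries each. Peaks that shared at least 1 bp were merged into a region, and a region was kept where each of the 6 lists had a peak in it. The members were thus chosen by measured values, the NRPE1 peak calls themselves, so their NRPE1 levels are given as a description with no test. The constant regions held 9.39 Mb of the genome, with a median width of 1430.5 bp against 430 bp for the 30565 other NRPE1 regions. A region grows as peaks of more lists are merged into it, so values are also given for windows of 500 bp centred on the summit of its strongest WT peak. Of the other regions, 13133 (43.0%) had a WT peak, and in the remaining 17432 the window was centred on the strongest peak of any list.

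NRPE1 is the largest subunit of Pol V, the plant RNA polymerase that makes the scaffold transcripts of RNA-directed DNA methylation (RdDM). Pol V is loaded onto chromatin by a complex that includes DMS3 and by the methyl-DNA binding proteins SUVH2 and SUVH9, and the pathway methylates transposon-derived sequence in all cytosine contexts, often next to genes. SUVH1 is another methyl-DNA binding protein, which acts with DNAJ proteins to favour transcription of genes near RdDM sites. Linker histone H1 and H3K9me2 are abundant in pericentromeric heterochromatin. In ZF108-DMS3, DMS3 with a FLAG tag is fused to a zinc finger designed for the FWA promoter that also binds many other sites.

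Besides NRPE1, peak lists were used for H1 in WT, in the *nrpe1* mutant (nrpe1-11) and in ZF108-DMS3, for H3K9me2 in WT and *h1*, and for SUVH1-3xFLAG, a transgene immunoprecipitated through its tag in the *h1* background only. Every group had 2 libraries. All plants were Col-0. Per the study's methods the material was pooled seedlings of 10 to 12 days, whereas the labels name floral tissue, and peak lists cannot settle which it was. NRPE1 and H1 in ZF108-DMS3 were taken from the same chromatin. Each peak describes a pool of plants, so a site bound in few cells and a site bound weakly in all cells cannot be told apart.

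One list set the number of members. The list of ZF108-DMS3 replicate 1 had 18173 peaks against 20358 to 25522 in the other 5 NRPE1 lists, and 4898 regions missed only that list, whereas 1 to 133 regions missed only one of the others. Without it the constant set grew from 4034 to 8928 regions, and without any other single list it held 4032 to 4146. In 64.2% of the members that library also held the weakest of the 6 peaks by rank within its list. The pericentromeric share, the places of the summits, the listed elements and the contrasts of SUVH1, H1 and H3K9me2 with the other regions are therefore given without it as well.

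Sequences at the summits show what kind of DNA the constant regions held, and they are printed for the 3 members with the highest NRPE1 ranks, for a pair of high-ranking members that also carried H1 and H3K9me2, and for FWA. All are from the plus strand of RefSeq TAIR10.1, which has the same nuclear chromosome lengths as the TAIR10 build of the peak lists. The windows are chr1:20979475-20979624 upstream of AT1G56090, chr5:8404991-8405140 downstream of AT5G24570, chr4:8345601-8345750 downstream of NF-YB3, chr1:12138785-12138934 near the pseudogene AT1G33450, chr2:3985865-3986014 near the pseudogene AT2G10350, and chr4:13038259-13038359, which stops at the first base of FWA. Capitals mark CG sites in the first 5 sequences, and in FWA they mark the longest stretch that occurs again without overlap.
AT1G56090: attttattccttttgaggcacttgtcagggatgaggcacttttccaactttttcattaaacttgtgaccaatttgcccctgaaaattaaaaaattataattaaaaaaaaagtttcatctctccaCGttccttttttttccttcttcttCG
AT5G24570: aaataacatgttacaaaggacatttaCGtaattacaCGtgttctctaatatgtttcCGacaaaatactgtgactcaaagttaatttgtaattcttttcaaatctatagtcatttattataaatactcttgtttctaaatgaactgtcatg
NF-YB3: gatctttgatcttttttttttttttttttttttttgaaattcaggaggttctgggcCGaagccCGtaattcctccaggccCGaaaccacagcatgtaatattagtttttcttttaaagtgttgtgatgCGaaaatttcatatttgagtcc
AT1G33450: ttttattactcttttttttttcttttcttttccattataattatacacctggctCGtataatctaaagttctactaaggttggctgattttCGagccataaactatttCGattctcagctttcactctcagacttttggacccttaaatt
AT2G10350: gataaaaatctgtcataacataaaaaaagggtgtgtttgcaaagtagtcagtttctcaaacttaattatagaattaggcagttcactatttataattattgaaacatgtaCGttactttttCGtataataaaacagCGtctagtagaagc
FWA: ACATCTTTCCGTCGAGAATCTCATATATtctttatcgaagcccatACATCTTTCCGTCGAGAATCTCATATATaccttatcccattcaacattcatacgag

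The first 5 windows are rich in A and T, with a GC content of 26.7% to 34.7%, and held 2 to 4 CG sites in 150 bases each. The FWA window held a stretch of 28 bases repeated exactly, with 6 CG sites and a GC content of 37.6%. A low GC content held on average across the set. Over the 500-bp windows of all 4034 members the mean GC content was 30.9%, against 34.7% in the other NRPE1 regions (33.0% in those with a WT peak) and 36.0% in the nuclear genome. Bases in CG context, counted as cytosines on either strand, made up 4.03% of the windows on average, 4.76% in the other regions and 4.67% of the nuclear genome. Soft-masked repeat sequence made up 38.6% of the windows on average, 31.9% in the other regions (39.7% in those with a WT peak) and 21.9% of the genome. The 4898 regions that missed only ZF108-DMS3 replicate 1 were much like the members, with 30.6% GC, 4.08% in CG context and 39.9% masked. In the 3194 regions called in all 4 WT and *h1* lists and in neither ZF108-DMS3 list, mean GC was 33.3%.

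The NRPE1 levels that follow describe values used in the choice of the members. The enrichment over control that MACS2 gave for the strongest peak of each member had a median of 5.67 and 8.84 in the WT libraries, 8.82 and 10.8 in *h1*, and 3.61 and 4.40 in ZF108-DMS3. Within their own lists these peaks ranked at a median percentile of 88.9 and 88.3 in WT, 88.7 and 89.1 in *h1*, 47.8 in ZF108-DMS3 replicate 1 and 78.1 in replicate 2. Fold values depend on each library's depth and control, and the lists that the ranks refer to differ in length and content, so neither scale compares binding between genotypes. Across the 4034 members the fold in the WT libraries correlated with a Spearman rho of 0.91 and in the *h1* libraries with 0.96. Between WT and *h1* rho was 0.66 to 0.69, and ZF108-DMS3 replicate 1 reached 0.26 to 0.27 with WT and 0.53 with its own replicate. These correlations describe the same regions in libraries with different controls.

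**Figure D1:**
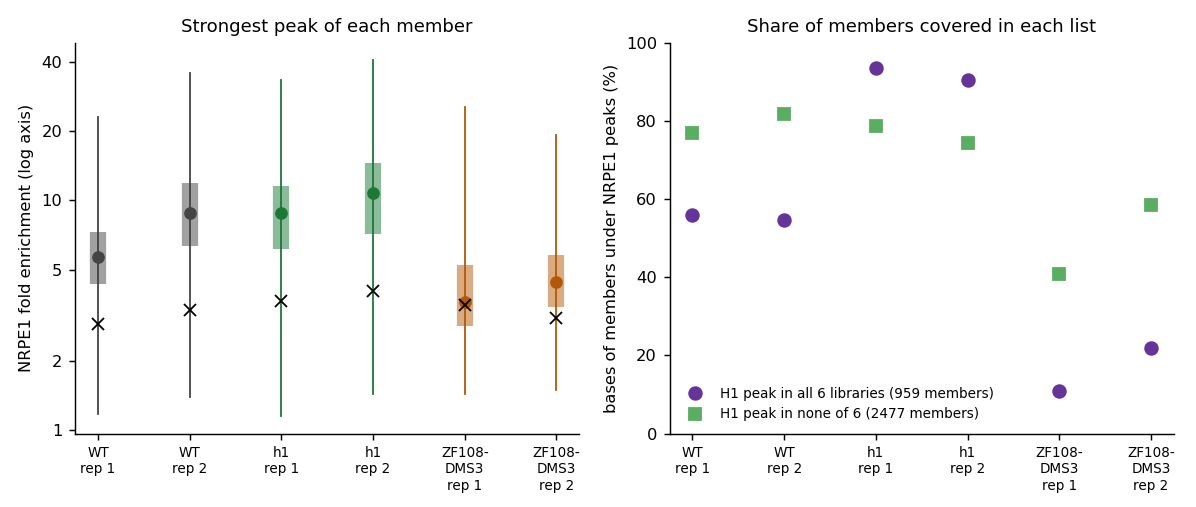
Left, NRPE1 fold enrichment (log axis) of the strongest peak of each of the 4034 constant regions in the 6 lists: the dot is the median, the thick bar the interquartile range, the thin line the full range and the cross the median of all peaks of that list; in ZF108-DMS3 replicate 1 the median of the members (3.61) lies close to that of the whole list (3.51). Right, percent of member bases under NRPE1 peaks in each list, for members with an H1 peak in all 6 H1 libraries and in none. The H1-free members are covered about alike in WT and *h1*, and the H1-marked members more in *h1*. The extent of a region includes its *h1* peaks, so the shares describe the merged intervals only.

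Of the bases in the constant regions, 65.3% and 67.2% lay under a peak in WT, 87.8% and 84.4% in *h1*, and 22.9% and 36.6% in ZF108-DMS3. In the 959 members with an H1 peak in all 6 H1 libraries the coverage was 56.0% and 54.7% in WT against 93.5% and 90.5% in *h1*. In the 2477 members with no H1 peak in any library it was 76.8% and 81.7% in WT against 78.7% and 74.3% in *h1*. In pericentromeric windows the 273 H1-free members were covered to 77.7% and 83.0% in WT and to 78.9% and 74.6% in *h1*. The 681 H1-marked members there were covered to 54.2% and 53.2% in WT and to 93.0% and 89.7% in *h1*. Members with H1 in both WT libraries were wider (median 4205 bp) than the H1-free members (1052 bp), and the part of width was not tested. Because the extent of a region includes its *h1* peaks, these shares describe the merged intervals only.

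The 6 lists mostly met at one place. In 3600 members (89.2%) at least 1 base was covered in all 6 lists, with a median shared core of 305.5 bp, and in 434 the 6 lists had peaks in the region without a common base. Each list had exactly 1 peak in 1604 members. The strongest summits of the WT libraries lay a median of 33 bp apart, those of the *h1* libraries 27 bp apart, and those of WT and *h1* 39 to 46 bp apart. Summits of ZF108-DMS3 replicate 2 lay a median of 55 and 59 bp from those of WT, and summits of replicate 1 lay 142.5 and 145.5 bp away. At the edge of the rule, 13 members had a weakest peak with a −log10 q under 1.5, with a median fold of 1.88 in ZF108-DMS3 replicate 1 and 3.18 in WT replicate 1. The 4898 regions that missed only ZF108-DMS3 replicate 1 had a median fold of 3.88 and 5.54 in WT.

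Constant regions lay mainly on the chromosome arms, close to genes. Of the 4034, 1153 (28.6%) were in pericentromeric windows, taken as 100-kb windows in which WT H3K9me2 peaks filled 10% of the bases or more, against a background of 35.3% of all merged NRPE1 regions. The share was 56.7% among the 3194 regions called in all 4 WT and *h1* lists and in neither ZF108-DMS3 list. Per length, the pericentromeric windows still held more members, 51.7 per Mb against 29.7 per Mb elsewhere. All 5 chromosomes held members, from 663 on chromosome 4 to 945 on chromosome 1, and the density ran from 31.1 per Mb on chromosome 1 to 41.8 per Mb on chromosome 2. Without ZF108-DMS3 replicate 1 the pericentromeric share was 34.2%.

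Few summits lay inside protein-coding genes or pseudogenes. In 1415 members (35.1%) the summit lay within 1 kb upstream of a protein-coding gene and outside protein-coding genes and pseudogenes. In 552 (13.7%) it lay within 1 kb downstream. Exons of protein-coding genes held 5.38% of the summits, introns 3.67% and pseudogenes 3.92%. Among the other NRPE1 regions the shares were 19.6% upstream, 21.4% in exons and 15.8% in pseudogenes. The exon share of the other regions came mostly from those without a WT peak (32.6%), and in those with a WT peak it was 6.50%, with 18.3% upstream and 20.0% in pseudogenes. Without ZF108-DMS3 replicate 1, 30.4% of the members had the summit upstream. The most frequent place was 250 to 500 bp upstream of the nearest gene start, which held 492 members (12.2%). An upstream peak was not particular to the members. In the regions of WT and *h1* without ZF108-DMS3 the most frequent place was 500 to 750 bp upstream (4.57%). In the other regions as a whole it was the first 250 bp of the gene, and these distances were not split by WT peak. In total 1720 members (42.6%) touched a protein-coding gene with some part of their span, against a background of 36.5%. On the arms the share was 46.3% against 50.4% of the other regions, and in pericentromeric windows 33.5% against 9.68%. The members were also wider, and a wider region touches a gene more readily. Summits within 1 kb of a protein-coding gene were counted as upstream or downstream even where they also lay in a noncoding gene. Among the summits left, 48 (1.19% of all members) lay in other noncoding genes and 1496 (37.1%) lay farther from genes. The latter class took 56.1% of the pericentromeric members and 29.5% of those on the arms.

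**Figure D2:**
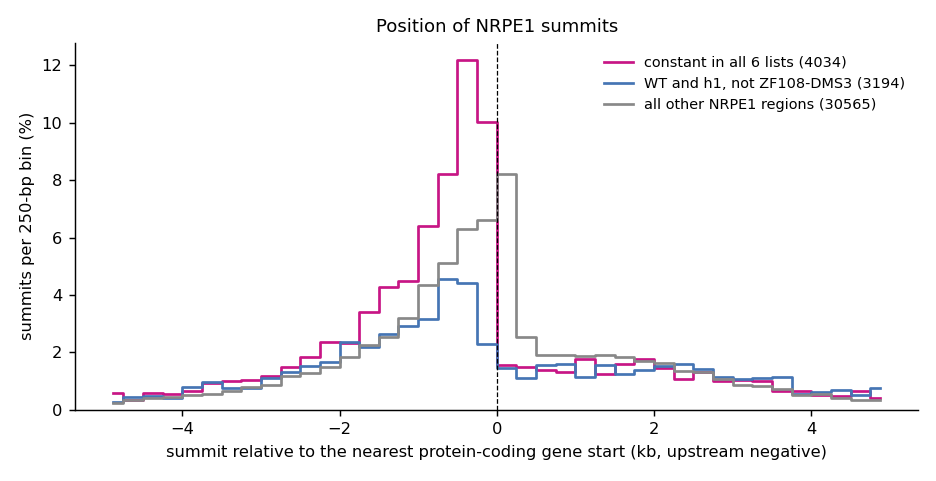
Percent of NRPE1 summits per 250-bp bin by distance to the nearest protein-coding gene start (kb, upstream negative), for the 4034 constant regions, the 3194 regions of WT and *h1* without ZF108-DMS3 and the 30565 other NRPE1 regions. The constant regions peak between 250 and 500 bp upstream and fall steeply at the gene start, where the other regions peak. The regions of WT and *h1* without ZF108-DMS3 also peak upstream, between 500 and 750 bp (4.57%).

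Transposable elements were common among the members. The study lists 1562 elements by length class, a part of all elements in the genome, and 912 constant regions (22.6%) overlapped one of them, against a background of 5.62%. Seen from the elements, 1010 of 1562 had a constant region, and the share rose with their length, from 58.4% of the 806 elements under 1 kb, through 65.7% and 72.6%, to 90.3% of the 124 elements over 5 kb. Nearly all listed elements, 1553 of 1562, held an NRPE1 region of any kind, with 799 of the 806 under 1 kb and all 124 over 5 kb. The list is thus one of NRPE1-bound elements, and the excess over the background is not independent of NRPE1 binding. A longer element has more bases that can overlap. With the 500-bp windows 16.9% of the members overlapped a listed element, and without ZF108-DMS3 replicate 1 the share over whole regions was 16.4%. The members on a listed element had a higher median WT fold (6.34 and 10.3) than the other members (5.40 and 8.40).

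SUVH1 peaks, which the rule did not use, lay on most of the constant regions. A SUVH1 peak in *h1* overlapped 77.1% of the members in replicate 1 and 79.2% in replicate 2, and 2971 members (73.6%) had one in both, against a background of 21.8% of all merged NRPE1 regions. In the other NRPE1 regions the shares were 25.1% and 18.9%. The regions of WT and *h1* without ZF108-DMS3 reached 51.7% and 42.4%, and those that missed only ZF108-DMS3 replicate 1 reached 60.6% and 59.5%. With 2 libraries of 1 genotype there is no test, and the difference between constant and other regions was 52.0 points in one library and 60.3 in the other. In the 500-bp windows, which are equally wide in both sets, the shares were 71.3% and 74.1% against 22.7% and 16.3%. Against only the other regions with a WT peak, whose windows had SUVH1 in 40.2% and 32.3%, the mean difference was 36.4 points.

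The SUVH1 excess was smaller once width was matched on whole regions. Among regions of 1 to 2 kb, an alternative chosen after the data were seen, 77.2% and 77.9% of 1350 constant regions had a SUVH1 peak against 64.0% and 51.0% of the other regions of that width, a mean difference of 20.0 points. In the 500-bp windows of those regions it was 29.0 points. In the set of 8928 regions that were constant without ZF108-DMS3 replicate 1, the shares were 68.1% and 68.5%, and in the 2301 members in which the summit of that library lay within 200 bp of the WT summit they were 81.7% and 83.7%.

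SUVH1 peaks were centred on the NRPE1 summits. On the arms, 61.2% and 65.2% of the 2881 members were under a SUVH1 peak at the summit base itself, and 12.2% and 12.5% at 1 kb from it. In pericentromeric windows the values were 75.5% and 75.1% at the summit and 32.9% and 28.8% at 1 kb. In the arm regions of WT and *h1* without ZF108-DMS3, SUVH1 covered 16.1% and 17.7% of the summits. H1 was lower near the summit than farther away, with its lowest value 50 to 250 bp from the summit rather than at the summit base itself. On the arms WT H1 peaks covered 0.97% and 1.49% of the member summits against 2.93% and 3.75% at 1 kb. In pericentromeric windows they covered 26.5% and 28.8% of the summits, against 30.1% and 33.4% at 1 kb and 37.8% and 41.2% at 3 kb.

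**Figure D3:**
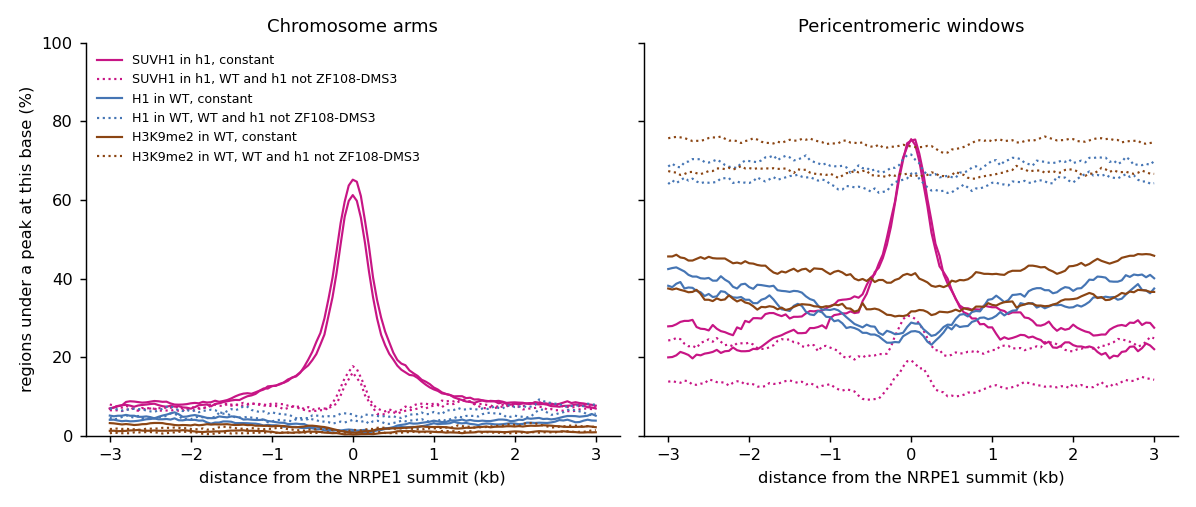
Percent of regions under a SUVH1 (in *h1*), H1 (in WT) or H3K9me2 (in WT) peak by distance from the NRPE1 summit (kb), on the arms (left) and in pericentromeric windows (right), with 1 line per library; solid lines are the constant regions, dotted lines the regions of WT and *h1* without ZF108-DMS3. SUVH1 reaches 61.2% to 75.5% at the summit of the constant regions, and pericentromeric H1 is lower there (26.5% and 28.8%) than at 3 kb.

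H1 was sparse at the summits of the constant regions. An H1 peak overlapped 11.8% to 14.4% of the 500-bp windows of the members over the 6 H1 libraries, against 30.8% to 32.3% in the other NRPE1 regions. The difference was lower in 6 of 6 libraries, by 18.5 points on average (SD 0.589, exact sign-flip permutation over libraries, two-sided, p = 0.03125, the smallest that 6 libraries can give). The libraries measured the same regions, so this test covers only the spread between libraries. In pericentromeric windows the share was 33.7% to 41.1% in the members against 78.4% to 81.5% in the other regions, a mean difference of −43.1 points. On the arms H1 was rare in both, 2.81% to 3.75% against 3.54% to 4.47%, a mean difference of −0.69 points. Against only the other regions with a WT peak, in which H1 lay on 42.5% to 44.7% of the windows, the difference was −30.6 points. In the 8928 regions that were constant without ZF108-DMS3 replicate 1, H1 lay on 19.5% to 22.2% of the windows, against 42.2% to 43.7% of the regions outside that set. Where NRPE1 peaks within 500 bp of each other were merged, the difference over all windows shrank to −0.50 points (exact sign-flip permutation, p = 0.0625).

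Over whole regions the contrast was small, and its direction was not the same on the arms or under other ways of merging or choosing the peaks. An H1 peak overlapped 29.6% to 32.1% of the members against 32.3% to 33.5% of the other regions, a mean difference of −2.56 points (SD 0.665, lower in 6 of 6 libraries, exact sign-flip permutation, p = 0.03125). In all, 959 members (23.8%) had an H1 peak in all 6 libraries, against a background of 28.3%, and 2477 (61.4%) had one in none, against a background of 62.3%. On the arms the difference turned to +10.2 points, it turned to +16.6 points where NRPE1 peaks within 500 bp of each other were merged, and to +1.51 points with equal numbers of peaks per list. Without ZF108-DMS3 replicate 1 it was −10.0 points, and without *h1* replicate 1 or 2 it was −8.63 or −7.27 points. Among regions of 1 to 2 kb, 11.2% to 13.9% of the members had an H1 peak against 56.4% to 57.7% of the other regions.

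The share of members with H1 rose with their width. H1 peaks overlapped 4.98% to 6.49% of the 1264 members under 1 kb, 11.2% to 13.9% of the 1350 members of 1 to 2 kb, 48.0% to 52.5% of the 788 members of 2 to 4 kb and 91.5% to 96.5% of the 632 members over 4 kb. The widest class was also the most pericentromeric, at 57.9% against 14.8% in the narrowest. Even in the members over 4 kb, the 500-bp windows at the summit had an H1 peak in 28.8% to 36.2%.

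H3K9me2 was likewise less frequent at the members than in the other regions when all were pooled. Its peaks overlapped 24.4% and 27.9% of the members in WT and 23.6% and 24.4% in *h1*, against 30.3% to 31.6% of the other regions over the 4 libraries. The mean difference was −5.55 points over whole regions and −15.4 points in the 500-bp windows, lower in 4 of 4 libraries (exact sign-flip permutation, p = 0.125, the smallest that 4 libraries can give). Without the NRPE1 list of ZF108-DMS3 replicate 1 the whole-region difference was −12.8 points, and without that of *h1* replicate 1 or 2 it was −11.1 or −9.96 points. In windows against only the other regions with a WT peak it was −27.3 points. In all, 816 members (20.2%) had H3K9me2 in all 4 libraries, against a background of 27.5%, and 2801 (69.4%) had it in none, against a background of 67.5%. On the arms, which were defined by low WT H3K9me2 coverage, the share was low for that reason. The direction turned there, with 6.98% to 10.0% of the members against 1.06% to 1.62% of the other arm regions. Members on the arms were wider (median 1218 bp against 400 bp), and in the 500-bp windows the mean difference was 1.04 points. In pericentromeric windows 63.8% to 72.6% of the members carried it, against 81.0% to 84.6%.

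**Figure D4:**
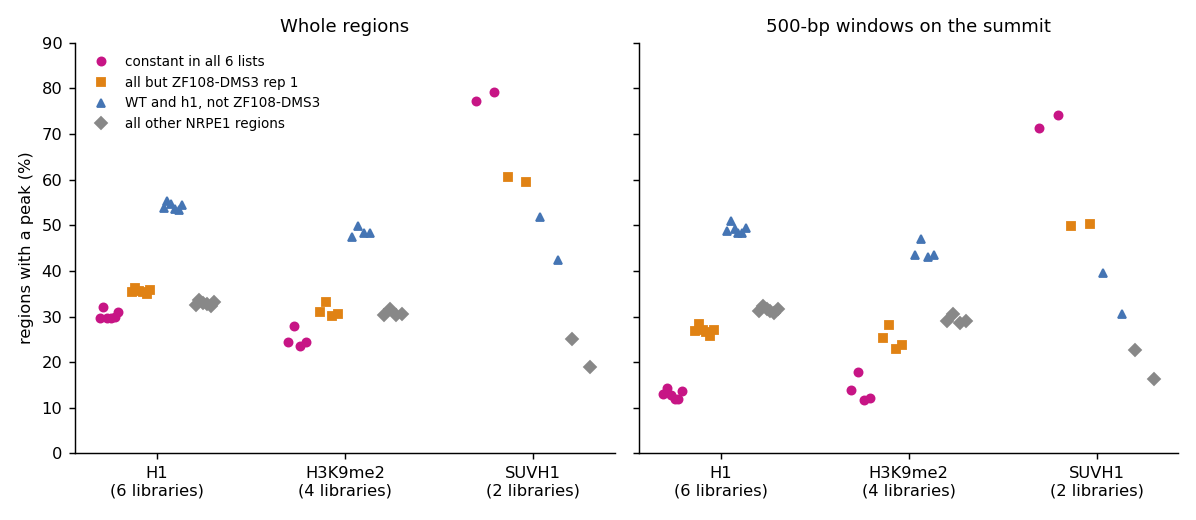
Percent of regions with an H1, H3K9me2 or SUVH1 peak, 1 point per library, over whole regions (left) and 500-bp windows on the summit (right), for the constant regions, the regions missing only ZF108-DMS3 replicate 1, the regions of WT and *h1* without ZF108-DMS3 and all other NRPE1 regions. The constant regions are highest for SUVH1 (71.3% and 74.1% of windows) and lowest for H1 (11.8% to 14.4% of windows).

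Over whole regions, the share of members with H1 differed between the 3 genotypes in which it was mapped by less than the spread of the WT libraries. H1 peaks touched 29.7% and 32.1% of the members in WT, 29.7% and 29.6% in *nrpe1*, the mutant of the subunit that defined the regions, and 29.8% and 31.0% in ZF108-DMS3. The groups overlapped or touched, and WT replicate 2 was the highest of the 6 libraries. The difference from WT was −1.20 points for *nrpe1* (exact permutation, p = 0.667) and −0.45 points for ZF108-DMS3 (p = 1), and the WT libraries themselves differed by 2.38 points. For *nrpe1* it was −2.39 points without H1 WT replicate 1 and −0.012 points without replicate 2. With 2 libraries against 2 the smallest possible p is 0.333, so these tests could not pass 0.05. In the pericentromeric 500-bp windows both *nrpe1* libraries (35.2% and 33.7%) were below both WT libraries (37.9% and 41.1%), with a mean difference of −5.07 points (exact permutation, p = 0.333).

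H3K9me2 at the members was lower in *h1* than in WT on average, within the spread of the WT libraries. The difference was −2.14 points of members with a peak (exact permutation, p = 0.667) and the WT libraries differed by 3.50 points. Leaving out single libraries gave −3.89 to −0.397 points, both ends set by the WT libraries. By bases covered, WT replicate 2 stood apart, with 32.7% against 22.8% in WT replicate 1 and 22.4% and 24.0% in *h1*. In the pericentromeric windows of 500 bp both *h1* libraries (37.6% and 38.5%) were below both WT libraries (44.9% and 55.0%), a mean difference of −11.9 points (exact permutation, p = 0.333). The pericentromeric zone was itself chosen by high coverage in these WT libraries, which favours WT, so no conclusion is drawn from this difference.

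By SUVH1 and H1 together the members fell into few kinds. The most frequent, 1585 members (39.3%), had SUVH1 in both libraries and H1 in none, against a background of 8.56%. These were short, with a median of 1208 bp, 12.6% pericentromeric, and in 42.1% the summit lay within 1 kb upstream of a gene. Another 921 (22.8%) had SUVH1 in both and H1 in all 6 libraries, against a background of 10.7%, with a median width of 4711 bp and 70.9% in pericentromeric windows. This kind was no rarer in the regions that missed only ZF108-DMS3 replicate 1 (23.8%) or in those of WT and *h1* without ZF108-DMS3 (25.4%). The kind with SUVH1 in both and H1 in none made up 21.2% and 5.89% of those sets. Only 3 members (0.0744%) had H1 in all 6 libraries and no SUVH1 in either, against a background of 8.92%. Wide members met SUVH1 readily, with 99.4% and 98.9% of the 632 over 4 kb. In the 500-bp windows of the 1112 members with H1 in both WT libraries, SUVH1 lay on 85.8% in each library. The part of width was not tested. A further 623 (15.4%) had neither SUVH1 nor H1 in any library, against a background of 50.2%, with the lowest median NRPE1 rank of the large kinds (percentile 69.8). In the remaining 902 (22.4%) at least 1 of the marks was called in some of its libraries and not in others, against a background of 21.5%. No peak of H1, H3K9me2 or SUVH1 in any library was found in 619 members (15.3%), against a background of 49.6%.

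SUVH1 also tracked the strength of NRPE1 within the members. The members were split into quartiles by the mean within-list percentile of their NRPE1 peaks over the 6 lists. SUVH1 peaks overlapped 52.3% and 52.0% of the 500-bp windows in the lowest quartile, 63.0% and 68.0% in the next, 78.3% and 83.2% in the next, and 91.8% and 93.2% in the highest. H1 went the other way, from 28.0% to 30.1% of the windows in the lowest quartile to 2.78% to 5.65% in the highest. The lowest quartile was also the most pericentromeric (43.6% against 22.1% in the highest), so rank and zone moved together, and the part of zone was not tested. Listed transposable elements rose along the same order, from 11.6% to 32.0% of the members.

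**Figure D5:**
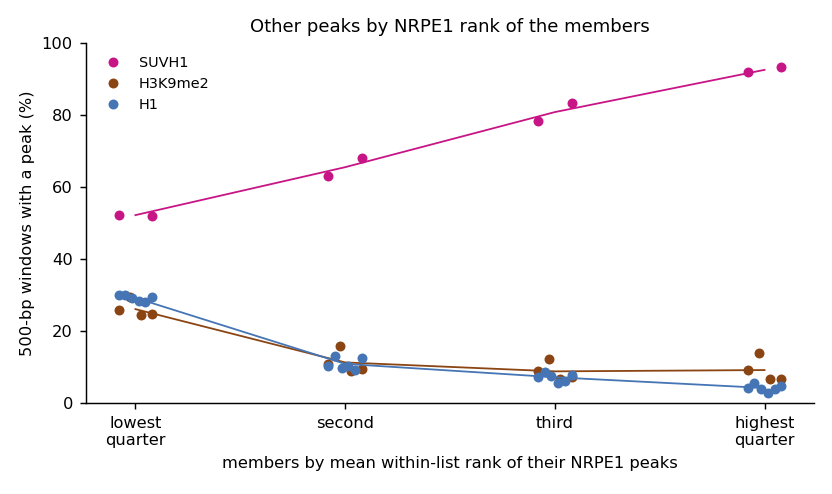
Percent of the 500-bp windows of constant regions with a SUVH1, H3K9me2 or H1 peak, 1 point per library with a line through the means, for the members split into 4 equal groups by the mean within-list rank of their NRPE1 peaks. SUVH1 rises from 52.0% and 52.3% to 91.8% and 93.2%, and H1 falls from 28.0% to 30.1% to 2.78% to 5.65%.

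The 10 members with the highest mean NRPE1 rank were all on chromosome arms, and all 10 carried SUVH1 in both libraries. The first, chr1:20979101-20983366, had its summit 102 bp upstream of AT1G56090, which encodes a tetratricopeptide repeat protein, and overlapped a listed element. Its NRPE1 fold was 15.3 and 22.2 in WT, 17.5 and 22.2 in *h1*, and 16.6 and 19.2 in ZF108-DMS3. SUVH1 covered 73.3% and 56.6% of its bases, and H1 was called there in the WT libraries only, over 5.51% and 6.05% of the bases.

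The second, chr5:8404104-8405519, lay 615 bp downstream of the uncharacterized gene AT5G24570 with a fold of 12.8 and 21.2 in WT, 17.1 and 21.9 in *h1*, and 16.5 and 11.8 in ZF108-DMS3. The third, chr4:8344969-8346059, had its summit 352 bp downstream of NF-YB3, a subunit of the NF-Y transcription factor that acts with CONSTANS in flowering, with a fold of 12.7 and 20.1 in WT, 15.7 and 20.7 in *h1*, and 15.3 and 15.0 in ZF108-DMS3. Both had SUVH1 over 73.4% to 79.0% of their bases and neither H1 nor H3K9me2 in any library. The same absence of H1 and H3K9me2 held in 8 of the 10.

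Of the other 7, chr5:14970881-14972137 had its summit 102 bp upstream of ARLA1A, an ARF-like GTPase, and chr1:20206354-20207112 174 bp upstream of the uncharacterized AT1G54120. The member at chr4:7942598-7945758 had its summit 596 bp upstream of PRR2, a pinoresinol reductase of lignan synthesis, and that at chr1:9706025-9708756 lay 499 bp upstream of AT1G27880, a DEAD/DEAH-box RNA helicase. The member chr5:21160696-21163189 spanned the start of AT5G52070, an Agenet domain protein, with its summit in an intron of that gene and 62 bp past the microRNA gene MIR4245. The summit of chr3:985267-986833 was 544 bp upstream of AT3G03855, a pseudogene of a disease resistance protein, and the member at chr3:10937229-10938937 lay farther from genes, with its summit 3487 bp downstream of the start of HB34, a homeobox gene. Across these 7 the fold was 9.25 to 14.7 in WT replicate 1 and 10.0 to 16.3 in ZF108-DMS3 replicate 2.

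H1 and H3K9me2 were called in all their libraries in 745 members (18.5%), against a background of 25.4%. The 5 of these with the highest NRPE1 rank also had SUVH1 in both libraries, and 2 of the 5 were pericentromeric. The member chr2:3984887-3996428 spanned 11542 bp and the pseudogene AT2G10350, with H1 over 77.1% to 83.7% and H3K9me2 over 83.0% to 96.3% of its bases. Its NRPE1 fold was 9.90 and 25.0 in WT, 16.5 and 23.2 in *h1*, and 18.1 and 12.6 in ZF108-DMS3. The member chr1:21745487-21759251 had its summit 100 bp upstream of AT1G58602, a disease resistance gene with NB-ARC and leucine-rich repeat domains, and reached far into the gene. SUVH1 covered 97.5% and 100% of it, H3K9me2 26.2% to 36.0% and H1 7.53% to 12.6%. The others were chr1:12138514-12143523 over the pseudogenes AT1G33450 and AT1G33460, chr5:10239825-10242615 over the start of the pseudogene AT5G28263, and chr4:629460-637306 over the pseudogene AT4G01490.

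Several genes of the RdDM pathway had a constant region within 1 kb. Of all 27444 protein-coding genes 4230 (15.4%) had one. Of 22 genes of the RdDM machinery 7 did: DCL3, the Dicer that makes the small RNAs, HEN1, which methylates them, CLSY1, a Pol IV recruiter, DMS3 and DRD1 of the Pol V loading complex, the methyl-DNA reader SUVH9, and the GHKL ATPase MORC6. The NRPE1 gene itself had a region in 5 of 6 lists, as had SUVH2, CLSY3 and CLSY4. Of 15 other genes of DNA methylation and linker histones, the H3K9 methyltransferase SUVH5 and the demethylase DML2 had one. The lists were chosen with results of these data known, and a gene can share its region with its neighbours.

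At DCL3 the summit was 280 bp upstream of the gene, with a fold of 3.44 and 5.70 in WT, 3.94 and 5.33 in *h1*, and 6.60 and 6.46 in ZF108-DMS3. At SUVH5 the summit was 443 bp upstream, with 6.65 and 11.6 in WT, 7.16 and 9.27 in *h1*, and 9.66 and 5.81 in ZF108-DMS3. Both lay on regions with SUVH1 in 1 library and without H1. The regions near CLSY1 (chr3:14761355-14779558) and MORC6 (chr1:6587641-6594225) were of the other kind, wide, on a listed element, with SUVH1 in both libraries and H1 in all 6. At CLSY1 the fold was 12.9 and 15.9 in WT, 17.8 and 22.3 in *h1*, and 7.65 and 6.80 in ZF108-DMS3.

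Of 12 genes known to lie beside RdDM targets 4 had a constant region, all with SUVH1 in both libraries. At FWA, a flowering repressor silenced through the repeats printed above, the region chr4:13037942-13038904 had its summit 26 bp upstream of the gene and a fold of 5.67 and 6.96 in WT, 8.97 and 10.3 in *h1*, and 9.63 and 5.93 in ZF108-DMS3. CML41, a calmodulin-like gene, had its summit 192 bp upstream, with a fold of 5.53 and 8.70 in WT, 10.5 and 13.9 in *h1*, and 3.83 and 4.17 in ZF108-DMS3. EPF2, a peptide that restricts stomatal development, and BNS were the others, with the summit 1327 bp upstream and 1557 bp downstream of the gene. No H1 or H3K9me2 was called at FWA, CML41 or EPF2, and BNS had H1 in 2 of 6 libraries. SDC, ROS1, QQS, MEA, HDG3, PHE1 and ALN had regions in 5 of 6 lists and FIS2 in 4.

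Other gene groups, chosen after the regions were known, lay around the share of all genes. A constant region within 1 kb was found for 20.1% of 194 disease resistance genes, 22.5% of 120 MADS-box genes, 22.1% of 113 defensin-like genes and 18.8% of 653 F-box genes. For ribosomal protein genes it was 11.6% of 344, and for pentatricopeptide repeat genes 12.5% of 313. Of other annotated features, 25.7% of 4843 pseudogenes, 15.6% of 326 miRNA genes and 3.84% of 625 tRNA genes overlapped a constant region with their body, against 7.42% of protein-coding genes. An NRPE1 region of any kind overlapped 87.5% of the pseudogenes, 38.7% of the miRNA genes, 32.6% of the tRNA genes and 40.8% of the protein-coding genes. The pseudogene share is thus high for NRPE1 regions in general.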

How the data were processed

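Peak lists of 18 of the 34 libraries were used (6 NRPE1, 6 H1, 4 H3K9me2, 2 SUVH1), and the other 16, H3 and bisulfite libraries, were not used here. According to the study's methods, the authors mapped the reads to TAIR10 (Bowtie2 2.1.0, unique hits, no mismatch allowed), discarded duplicates (SAMtools) and used MACS2 2.1.1 for peak calling. The deposited lists hold for each peak the fold enrichment over control as a linear ratio, the −log10 p-value and −log10 q-value, a score made from the q-value, and the offset of the summit. All deposited peaks had q below 0.05. Control depths were not given in the sources used here. Only the 5 nuclear chromosomes were kept, which removed 105 to 287 organelle peaks from the H3K9me2 lists and none from the others.

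Peaks were merged and overlapped (at least 1 bp) in Python 3.11.15 with NumPy 2.4.6 and pandas 2.3.3, tested on simulated data, and drawn with Matplotlib 3.10.9. Ranks within a list are percentiles of −log10 p. Genes are from the RefSeq annotation of TAIR10.1. The transposable elements are 1562 from a supplementary sheet of the study. NRPE1 values were not tested. Marks were compared between region sets by exact sign-flip permutation over libraries and between genotypes by exact permutation, and SUVH1 is given as values. The labels give no source of the replicates, so p-values cover only the spread between libraries. Named regions are the 10 of highest mean rank, the 5 of highest rank with H1 and H3K9me2 in all libraries, and those within 1 kb of listed genes. The members and lists were chosen with earlier results of these data known. The comparisons by zone, by width class, by summit alignment and against other regions with a WT peak were added after the data were seen.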

Additional observations from a re-analysis of the deposited data

How the results depend on the processing

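The number of members (4034) ranged from 4032 to 8928 when single lists were left out, and 2301 had an aligned ZF108-DMS3 replicate 1 summit. The pericentromeric share (28.6%) was 26.7% with a −log10 q of at least 3, 21.9% with peaks merged within 500 bp, 16.5% with windows of at least 30% under H3K9me2, and 28.4% to 34.2% without single lists. The SUVH1 difference from the other regions stayed between 48.7 and 60.3 points without single libraries. It was 49.8 points in pericentromeric windows, 20.0 points in regions of 1 to 2 kb, 29.0 points in their 500-bp windows, and 36.4 points in windows against only the other regions with a WT peak.

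The whole-region H1 difference (−2.56 points) turned to 1.51 points with equal numbers of peaks per list, 16.6 with merging within 500 bp and 10.2 on the arms. In windows with merging it was −0.50 points. Leaving out single libraries gave −10.0 to −1.73 points, and with 5 H1 libraries the smallest possible exact p is 0.0625. The H3K9me2 difference turned to 13.2 points with merging, 6.71 on the arms, 2.79 in windows with merging and 1.04 in windows on the arms. For H1 in ZF108-DMS3 against WT the sign changed with merging (0.0713 points), on the arms (0.26 points) and without single libraries (−1.64 to 0.744 points). The causes of these changes were not tested. By share of whole regions, H1 in *nrpe1* against WT ranged from −2.39 to −0.012 points and H3K9me2 in *h1* against WT from −3.89 to −0.397 points without single libraries. By bases covered on the arms the *nrpe1* difference was 0.462 points.

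With the replicate number as a block (replicate block) the genotype differences were the same, −1.20, −0.45 and −2.14 points, and no call changed. With 2 pairs, deviations of same-numbered libraries correlated at 0.0004 and 0.0752 for H1 and 0.112 for H3K9me2, so the numbers were not taken to pair the libraries.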
